A study of Mus musculus with 10 samples.

Results

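Amacrine cells are the inhibitory interneurons of the inner retina, and many of them make a neuropeptide besides GABA or glycine. A set of 8 neuropeptide precursor genes was examined here, Vip, Npy, Sst, Tac1, Penk, Cck, Adcyap1 and Pnoc, chosen as the rows of the deposited table that carry those gene names, and each name had 1 row among 36115. The table holds RNA sequencing counts of whole retinas from untreated mice aged 3 months, with 5 libraries labelled as interleukin-6 knockout (genotype B6.129S2-Il6tm1Kopf/J) and 5 of wild type. Both groups are labelled as C57BL/6 background, and the labels give no sex, litter or collection date. The knockout allele is a germline disruption present in every cell, and the labels do not say whether each library is a separate animal, so p-values describe the spread between these libraries, which may be partly technical. Libraries labelled knockout are called K1 to K5 and wild-type libraries W1 to W5, as names without order or pairing. The comparison asks which transcripts of the uninjured retina change with the Il6 genotype.

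Neuropeptides are made as large precursors that are cut in dense-core granules by prohormone convertases and trimmed by carboxypeptidase E, and the peptides then act on G protein-coupled receptors, often far from the site of release. In the retina, vasoactive intestinal peptide (Vip), neuropeptide Y (Npy), substance P (from Tac1), enkephalin (Penk) and somatostatin (Sst) each mark small amacrine populations. Cholecystokinin (Cck), PACAP (Adcyap1) and nociceptin (Pnoc) are also made by other retinal neurons, and PACAP is known from the ganglion cells that project to the circadian clock. In cultured neurons of other tissues, Vip is known as a gene that cytokines acting through gp130, the shared receptor subunit of the IL-6 family, can induce.

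Several of these genes carry the pentamer TGACG shortly before their start, the core of the cAMP response element to which CREB binds, and PACAP and VIP receptors themselves raise cAMP. The RefSeq promoter table (GRCm38.p6) held 6 of the 8 genes, all but Penk and Pnoc, with 7 promoters because Adcyap1 has a pair of starts. On either strand, TGACG was found in the 250 bases of 6 of these 7 promoters, from 5 of the 6 genes, against 17.8% of 32851 promoters of the same length. In the nearest 100 bases it was found in 5 of the 7 promoters, from the same 5 genes, against 10.5%. For 1 Adcyap1 start the only match lay 242 bases before it. It is the same site that lies 91 bases before the other start, counted in both because the promoters overlap. The palindrome TGACGTCA, which contains TGACG on both strands, was found in Sst, 48 bases before the start, and in 1.55% of all promoters. The letters TTCNNNGAA, a STAT-type motif, were in none of the 7 member promoters over 250 bases, against 7.02% of all promoters. The stretches below run 5′ to 3′ on the gene's own strand, with TGACG, or its other strand CGTCA, in capitals. Vip and Npy are given over 100 bases because they are the genes whose groups did not overlap, and the other genes over 30 bases around the match.
Vip, chr10:5639118-5639217, plus strand: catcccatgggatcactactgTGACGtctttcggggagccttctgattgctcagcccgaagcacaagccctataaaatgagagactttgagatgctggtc
Npy, chr6:49822610-49822709, plus strand: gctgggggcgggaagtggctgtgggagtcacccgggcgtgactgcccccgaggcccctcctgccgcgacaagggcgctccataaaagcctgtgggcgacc
Sst, chr16:23890874-23890903, minus strand: gcctccttggcTGACGTCAgagagagagtt
Cck, chr9:121495724-121495753, minus strand: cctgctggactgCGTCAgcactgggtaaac
Adcyap1, chr17:93198914-93198943, plus strand: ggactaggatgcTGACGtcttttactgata
Tac1, chr6:7555006-7555035, plus strand: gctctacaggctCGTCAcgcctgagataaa
The Tac1 match lies before the RefSeq start but inside the longer gene of the deposited table, which begins at 7554879. A match describes these letters only, and genes that hold one did not share a direction between the groups below.

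The libraries were of similar depth, with 30433373 to 38857374 counts each. Defining amacrine cell markers were present in every library, with 10 of them summing to 1097 to 1334 CPM in libraries labelled knockout and 1281 to 1317 CPM in wild type, while the lens markers Cryaa, Crygs and Mip stood at or below 0.309 CPM in every library. CPM are counts-per-million values over the reads of tested genes, after TMM scaling. Pigment epithelium and choroid markers varied, with summed levels of 640 to 1013 CPM in libraries labelled knockout and 322 to 1202 CPM in wild type over 16 genes. Il6 had 3, 3, 5, 7 and 4 counts in K1 to K5 and 0, 0, 1, 1 and 1 counts in W1 to W5, so its counts went against the labels. The ratio of summed counts, 22 against 3, was 7.33 after scaling for depth, with a 95% counting interval of 2.2 to 38.3 (exact two-sided permutation p = 0.00794 for log2(CPM + 1), the smallest that 5 against 5 libraries allow). Counts over the whole gene do not show which part was read, so they do not check the disrupted part, and directions below are those of the libraries as labelled. None of the 8 genes lies on chromosome 5, which carries Il6. K5 has a second index sequence of its own. As it is the only such library, index and library cannot be told apart.

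Of the 8 neuropeptide genes, 1 passed the test and was lower in the libraries labelled knockout, Vip. The others did not pass, although 6 of the 8 had a positive log2 fold change. All 8 passed the low-count filter. With edgeR's quasi-likelihood test and Benjamini-Hochberg adjustment over all 18965 tested genes (called at an adjusted p under 0.05), 2.03% of genes were called, 0.859% higher and 1.17% lower. The median log2 fold change of the 8 genes was 0.31, beside 0.0018 for all tested genes. Before adjustment, 4 of the 8 genes, Vip, Npy, Penk and Sst, had a p under 0.05, where 13.8% of all tested genes had one. In Vip and Npy, 2 of the 8, no library of one group overlapped the other, as in 3.48% of tested genes. Non-overlap with the libraries labelled knockout higher, as in Npy, held for 1.76% of tested genes, and with them lower, as in Vip, for 1.72%. The 8 genes were chosen with earlier results of these data known, so these shares describe the set and do not test it. In whole tissue, fewer cells of a type and less RNA per cell cannot be told apart.

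**Figure D1:**
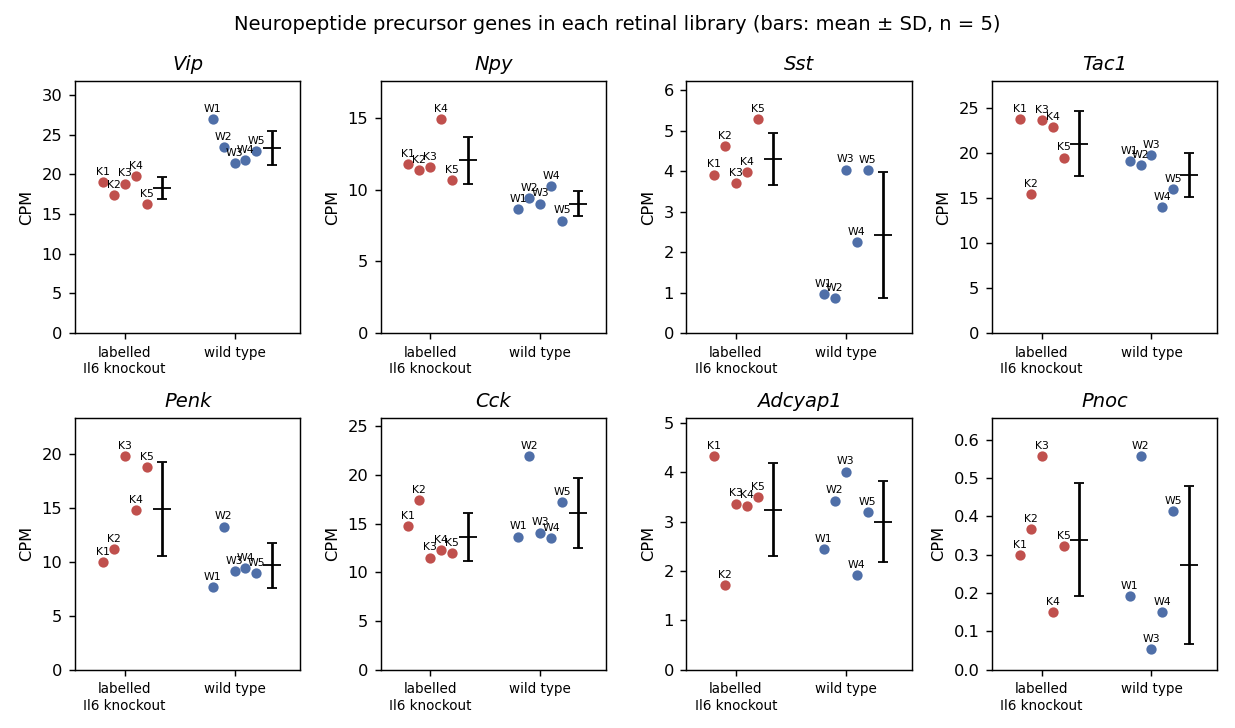
CPM of the 8 neuropeptide genes (vertical axis, from 0) in the 5 libraries labelled knockout (red, left) and the 5 wild-type libraries (blue, right), one point per library, with bars for the mean ± SD. Vip lies between 16.2 and 19.8 CPM in libraries labelled knockout and between 21.4 and 26.9 CPM in wild type, and W1 and W2 stand below all other libraries in Sst.

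Vip encodes vasoactive intestinal peptide, a relaxant and circadian peptide that marks GABA-using amacrine cells (ENSMUSG00000019772.5, chromosome 10, 5639218 to 5647617, GRCm38). Its level was 19.0, 17.4, 18.8, 19.8 and 16.2 CPM in K1 to K5, against 26.9, 23.4, 21.4, 21.8 and 22.9 CPM in W1 to W5. All 5 libraries labelled knockout lay below all 5 wild-type libraries. The means were 18.2 ± 1.41 CPM in libraries labelled knockout and 23.3 ± 2.18 CPM in wild type (SD, n = 5 each), from 553 to 874 reads per library. The log2 fold change was -0.35 ± 0.09 (SE; 95% interval -0.53 to -0.17), a level 21.6% lower, with an edgeR adjusted p of 0.0480. The call stood at the threshold. Leaving out any one of the 10 libraries ended it, with adjusted p of 0.0526 (without W2) to 0.126 (without K5), and so did limma-voom (0.0560) and upper-quartile scaling (0.0520). The log2 fold change stayed between -0.38 and -0.30 over all 17 alternatives. The authors' deposited table gives Vip a log2 fold change of -0.32 with a DESeq2 adjusted p of 0.00929.

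Npy encodes neuropeptide Y, a peptide that dampens transmitter release (ENSMUSG00000029819.6, chromosome 6, 49822710 to 49829507). It stood at 11.8, 11.4, 11.6, 14.9 and 10.7 CPM in K1 to K5, against 8.63, 9.40, 9.04, 10.2 and 7.85 CPM in W1 to W5. Here every library labelled knockout lay above every wild-type library, the reverse of Vip. K4 was the highest of all 10. The means were 12.1 ± 1.65 CPM in libraries labelled knockout and 9.03 ± 0.889 CPM in wild type (SD, n = 5 each), and the log2 fold change was 0.42 ± 0.11 (SE; 95% interval 0.18 to 0.66). The edgeR adjusted p of 0.0769 did not pass. DESeq2 run on the same counts gave 0.0177, and the authors' deposited table gives 0.0166 with a log2 fold change of 0.36.

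Penk, the precursor of the opioid enkephalins (ENSMUSG00000045573.9, chromosome 4, 4133531 to 4138819), varied more within groups. It stood at 9.99, 11.2, 19.8, 14.8 and 18.8 CPM in K1 to K5, against 7.64, 13.3, 9.12, 9.39 and 8.94 CPM in W1 to W5. K1 and K2 lay below W2, and the other libraries labelled knockout lay above every wild-type library. The means were 14.9 ± 4.39 CPM in libraries labelled knockout and 9.67 ± 2.12 CPM in wild type (SD, n = 5 each). The log2 fold change of 0.62 ± 0.19 (SE; 95% interval 0.22 to 1.03) had an edgeR adjusted p of 0.123, which did not pass. It was called without W2 (0.76, adjusted p 0.0320) and without K1 (0.74, adjusted p 0.0458), the libraries nearest the other group, without a low-count filter (adjusted p 0.0218) and by DESeq2 (adjusted p 0.0306). The authors' deposited table gives it a log2 fold change of 0.46 and an adjusted p of 0.0290. A non-coding gene on the opposite strand, A830012C17Rik, overlaps Penk but had 2 counts in libraries labelled knockout and 1 in wild type. DESeq2 thus called 3 of the 8 genes, Vip, Npy and Penk, where it called 3.07% of 24874 genes with an adjusted p. The same 3 have an adjusted p under 0.05 in the authors' deposited table, which gives one to 3.37% of 21411 genes.

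Sst encodes somatostatin, an inhibitory peptide that in the mouse retina marks sparse displaced amacrine cells with long processes (ENSMUSG00000004366.3, chromosome 16, 23889581 to 23890844). It stood at 3.92, 4.63, 3.70, 3.99 and 5.28 CPM in K1 to K5, against 0.955, 0.865, 4.04, 2.25 and 4.03 CPM in W1 to W5. The spread lay almost wholly in wild type, where W1 and W2 had 30 and 28 reads, while W3 and W5 stood within the range of the libraries labelled knockout. The coefficient of variation was 15.02% in libraries labelled knockout and 64.5% in wild type. The log2 fold change was 0.82 ± 0.35 (SE; 95% interval 0.07 to 1.56) with an edgeR adjusted p of 0.308, and no alternative called it (adjusted p 0.153 to 0.501). W1 and W2 also had the highest summed pigment epithelium and choroid markers of the wild-type libraries, at 874 and 1202 CPM. W3 to W5 had 322 to 564 CPM of these markers, and W4, at 564 CPM, held Sst at 2.25 CPM. Libraries labelled knockout had 640 to 1013 CPM of the same markers and held Sst at 3.70 CPM or more. Only K3 among them exceeded W1 in these markers, and none reached W2. The part of these markers in the level of Sst was not tested.

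Tac1 encodes substance P and neurokinin A (ENSMUSG00000061762.12, chromosome 6, 7554879 to 7565834). It stood at 23.7, 15.5, 23.7, 22.9 and 19.5 CPM in K1 to K5, against 19.1, 18.7, 19.7, 13.98 and 16.02 CPM in W1 to W5. K1, K3 and K4 lay above all wild-type libraries, and K2 near the bottom of both groups. The log2 fold change was 0.27 ± 0.13 (SE; 95% interval -0.0027 to 0.53), with an edgeR adjusted p of 0.370. Cck, the cholecystokinin precursor (ENSMUSG00000032532.7, chromosome 9, 121489824 to 121495694), stood at 14.7, 17.4, 11.5, 12.3 and 12.0 CPM in K1 to K5, against 13.7, 21.9, 14.1, 13.5 and 17.2 CPM in W1 to W5. K3, K4 and K5 lay below every wild-type library, whereas K1 and K2 lay inside the wild-type range. Its log2 fold change was -0.24 ± 0.15 (SE; 95% interval -0.56 to 0.08; edgeR adjusted p 0.518).

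Adcyap1 and Pnoc were the least abundant of the set per length of exon. Adcyap1, the precursor of PACAP (ENSMUSG00000024256.6, chromosome 17, 93199422 to 93205485), stood at 4.33, 1.72, 3.37, 3.33 and 3.49 CPM in K1 to K5, against 2.45, 3.43, 4.02, 1.92 and 3.20 CPM in W1 to W5. The groups covered the same range, with a log2 fold change of 0.11 (95% interval -0.40 to 0.62; edgeR adjusted p 0.889). Pnoc, the precursor of nociceptin (ENSMUSG00000045731.6, chromosome 14, 65400673 to 65425472), had 11, 13, 20, 5 and 11 reads in K1 to K5, against 6, 18, 2, 6 and 14 reads in W1 to W5. Its log2 fold change of 0.35 had a 95% interval of -0.71 to 1.40 (edgeR adjusted p 0.821), the widest of the set. The sign for Adcyap1 turned with the libraries used, as its log2 fold change was -0.01 without W4 and -0.01 without K1.

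No library stood at the edge of its group throughout. Leaving Pnoc aside, W3 was the highest wild-type library in 3 of 7 genes and W4 the lowest in 3, and no library labelled knockout was highest or lowest in more than 2.

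To compare levels between genes, reads were divided by the union exon length in GENCODE M21 (RPKM, CPM per kilobase of exon), which depends on the transcripts annotated. Npy was the most abundant, with 21.3 ± 2.91 RPKM in libraries labelled knockout and 15.95 ± 1.57 RPKM in wild type (SD, n = 5 each). Cck followed with 10.4 ± 1.89 RPKM in libraries labelled knockout and 12.3 ± 2.76 RPKM in wild type, and Npy exceeded Cck in 9 of 10 libraries, W2 being the exception. Penk, Vip, Tac1 and Sst lay close together, at 5.36 to 9.12 RPKM in libraries labelled knockout and 3.37 to 6.84 RPKM in wild type. Penk exceeded Vip in all 5 libraries labelled knockout and in 1 of the 5 wild-type libraries, and Vip exceeded Tac1 in 1 of the 5 libraries labelled knockout and in all 5 of wild type. The order of these neighbours thus differed between the groups, and over all libraries each exceeded the next in 6 or 7 of 10. Adcyap1 stood at 0.860 ± 0.250 RPKM in libraries labelled knockout and 0.795 ± 0.218 RPKM in wild type, and Pnoc at 0.157 ± 0.0679 RPKM in libraries labelled knockout and 0.127 ± 0.0958 RPKM in wild type. They came last in every library.

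**Figure D2:**
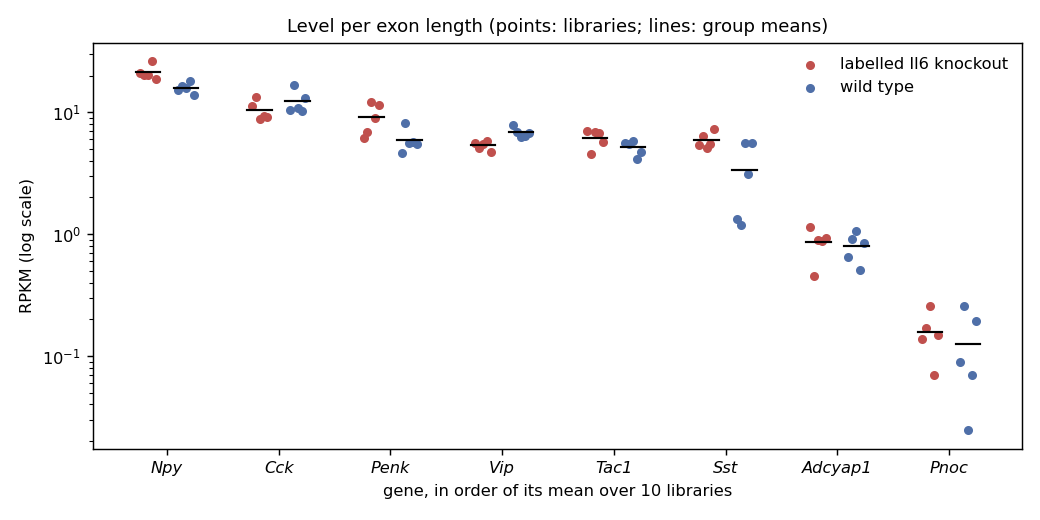
RPKM (vertical axis, log scale) of each gene in libraries labelled knockout (red, left of each pair) and wild type (blue, right), with 1 point per library and a line at each group mean. Npy stands highest and Pnoc lowest, and Sst in W1, W2 and W4 lies below every value of Penk, Vip and Tac1.

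The tested receptors of these peptides did not pass the edgeR test in either direction. Of 22 receptor genes listed, 15 passed the low-count filter and were tested. Of these, edgeR called 0 and limma-voom 0, where edgeR called 2.03% of all tested genes. An unadjusted p under 0.05 was found for 4, all with lower levels in the libraries labelled knockout, where 13.8% of all tested genes had one. Of the 15, 10 had a negative log2 fold change (median -0.17, beside 0.0018 for all tested genes). DESeq2, run without that filter, called 3 of the listed receptors lower, Sstr2, Oprl1 and Npy4r, where it called 3.07% of 24874 genes. Npy4r was not among the 15, with 20 reads in libraries labelled knockout and 108 in wild type. Vipr2, a receptor of both VIP and PACAP, stood at 42.9 ± 3.70 CPM in libraries labelled knockout and 48.3 ± 4.04 CPM in wild type (SD, n = 5 each), and its log2 fold change was -0.17 (edgeR adjusted p 0.332). An antisense gene, Gm20658, overlaps Vipr2 and had 72 counts in libraries labelled knockout and 220 in wild type, and reads of the strands may not be told apart. Vipr1, the other VIP receptor, stood at 1.08 CPM in libraries labelled knockout and 1.07 CPM in wild type. Adcyap1r1, the receptor selective for PACAP, stood at 10.5 CPM in libraries labelled knockout and 9.86 CPM in wild type.

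Sstr2, a somatostatin receptor of retinal neurons, stood at 4.98, 4.69, 5.43, 4.14 and 5.11 CPM in K1 to K5, against 6.18, 6.43, 6.87, 6.32 and 7.08 CPM in W1 to W5. All libraries labelled knockout lay below all wild-type libraries, and the edgeR adjusted p was 0.0842 (log2 fold change -0.43 ± 0.12, SE). Slc39a11 overlaps it on the opposite strand. Oprl1, the nociceptin receptor, stood at 8.66, 10.1, 9.63, 7.92 and 9.48 CPM in K1 to K5, against 11.3, 12.9, 10.8, 11.8 and 12.0 CPM in W1 to W5, also without overlap (log2 fold change -0.36 ± 0.10, SE; edgeR adjusted p 0.0812). Non-overlap with the libraries labelled knockout lower held for 1.72% of all tested genes. The substance P receptor Tacr1 had a log2 fold change of -0.16, the neurokinin receptor Tacr3 one of 0.02, and the cholecystokinin receptor Cckbr one of 0.18, with edgeR adjusted p of 0.577 or more. The tested Npy receptors differed in sign, with log2 fold changes of -0.28 for Npy1r, -0.24 for Npy5r and 0.70 for Npy6r, the last from 98 reads in libraries labelled knockout and 60 in wild type (edgeR adjusted p 0.593, 0.807 and 0.379). Oprm1, the mu opioid receptor at which enkephalins act, was read 36 times in libraries labelled knockout and 71 times in wild type (edgeR adjusted p 0.235), and Oprd1 and Oprk1 were too low to test.

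Among other peptide precursors, 2 of 21 tested genes were called higher in libraries labelled knockout, 1 was called lower and 18 did not pass. Over all tested genes, 0.859% were called higher and 1.17% lower. Crh, corticotropin-releasing hormone, a marker of further amacrine types (chromosome 3, 19693401 to 19695396), stood at 2.51, 1.75, 1.56, 1.80 and 1.70 CPM in K1 to K5, against 1.08, 0.711, 1.03, 0.549 and 0.651 CPM in W1 to W5. Its groups did not overlap, and non-overlap in that direction held for 1.76% of all tested genes. Its log2 fold change was 1.21 ± 0.23 (SE, n = 5 each) with an edgeR adjusted p of 0.0123. It kept its call with each library left out (0.0108 to 0.0337) and lost it without W5 and K5 together (0.0528). Pdyn, the precursor of the opioid dynorphins (chromosome 2, 129686565 to 129699844), stood at 20.9, 19.3, 22.7, 21.7 and 24.2 CPM in K1 to K5, against 13.5, 12.9, 14.9, 10.4 and 20.1 CPM in W1 to W5. W5 alone reached the range of the libraries labelled knockout. The log2 fold change was 0.60 ± 0.14 (SE, n = 5 each) with an edgeR adjusted p of 0.0357, and leaving out W1, W3, W4 or any library labelled knockout except K2 ended the call (0.0502 to 0.0994).

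Cort, which encodes the somatostatin relative cortistatin (chromosome 4, 149125034 to 149126763), had 6, 4, 1, 5 and 6 reads in K1 to K5, against 14, 13, 19, 23 and 15 reads in W1 to W5. The groups did not overlap, and non-overlap in that direction held for 1.72% of all tested genes. Its log2 fold change was -1.89 ± 0.37 (SE, n = 5 each; edgeR adjusted p 0.0126), and all 17 alternatives called it. The tested precursors that did not pass include Cartpt, which encodes the CART peptide, at 121 ± 6.19 CPM in libraries labelled knockout and 136 ± 22.2 CPM in wild type, and Tac2, the neurokinin B precursor, at 13.01 ± 2.504 CPM in libraries labelled knockout and 12.95 ± 2.84 CPM in wild type.

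**Figure D3:**
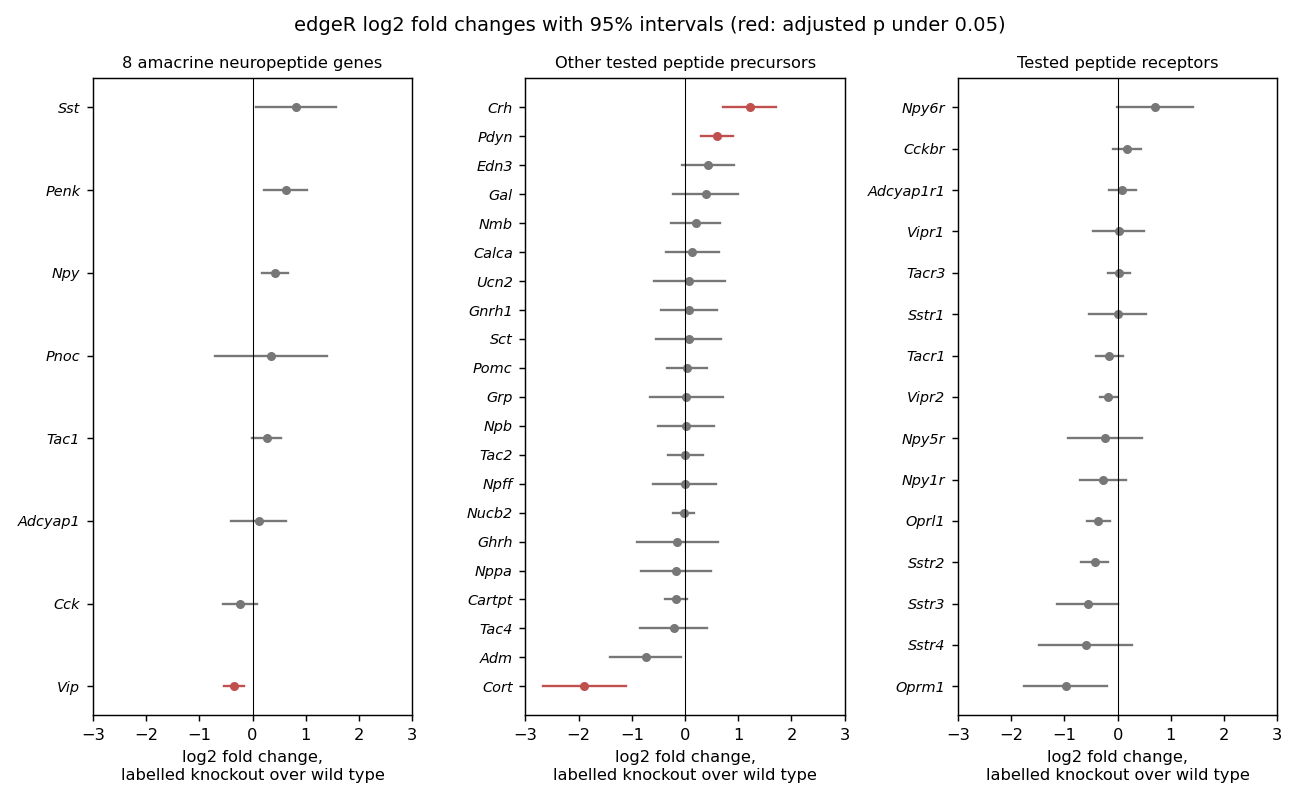
edgeR log2 fold changes, libraries labelled knockout over wild type (horizontal axis), with 95% intervals, for the 8 neuropeptide genes, 21 other precursors and 15 receptors, with genes past an adjusted p of 0.05 in red. Vip and Cort pass to the left of 0, Pdyn and Crh to the right, and no receptor passes.

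The machinery that makes neuropeptides, and the cells that carry them, gave no calls. Over all genes, edgeR called 2.03% and DESeq2 3.07%, and 0 calls in lists this short lies near these shares. Of 24 tested genes of peptide processing and dense-core granules, edgeR, DESeq2 and limma-voom each called 0, with a median log2 fold change of 0.00. An unadjusted p under 0.05 was found for 7 (2 positive and 5 negative), where 13.8% of all tested genes had one. Among these, the log2 fold change was -0.35 for Pcsk5, -0.30 for Ece2 and 0.34 for Cadps2 (edgeR adjusted p 0.230, 0.138 and 0.183). The groups did not overlap in Pcsk5 and Cadps2, 2 of the 24, as in 3.48% of all tested genes. Carboxypeptidase E (Cpe) stood at 1529.5 ± 193 CPM in libraries labelled knockout and 1529.0 ± 179 CPM in wild type (SD, n = 5 each). The granule protein Chgb stood at 459.9 ± 41.6 CPM in libraries labelled knockout and 459.5 ± 48.9 CPM in wild type. The convertase Pcsk1 stood at 13.4 ± 1.599 CPM in libraries labelled knockout and 16.8 ± 3.44 CPM in wild type (edgeR adjusted p 0.297). Of 38 tested amacrine cell markers, the same 3 tools called 0. Log2 fold changes were negative for 21 of them and positive for 17, with a median of -0.05. An unadjusted p under 0.05 was found for 6, where 13.8% of all tested genes had one. These 6 had negative log2 fold changes, at -0.36 for Slc18a2, -0.31 for Tfap2c, -0.31 for Nos1, -0.23 for Gad2, -0.20 for Prdm13 and -0.20 for Bhlhe22 (edgeR adjusted p 0.156 to 0.303). The summed level of the amacrine marker list ran from 2789 to 3208 CPM in libraries labelled knockout and from 3081 to 3259 CPM in wild type. Gad2, a GABA-making enzyme, had a log2 fold change of -0.23 (edgeR adjusted p 0.156) and Gad1, the other, one of -0.09 (0.690).

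Other sources of these peptides were read beside them. Of 16 tested ganglion cell markers, 0 were called by edgeR, DESeq2 or limma-voom, with a median log2 fold change of -0.13. Over all genes, edgeR called 2.03% and DESeq2 3.07%. An unadjusted p under 0.05 was found for 2, both negative, where 13.8% of all tested genes had one. The summed level of the ganglion marker list ran from 948 to 1268 CPM in libraries labelled knockout and from 952 to 1415 CPM in wild type. Of 16 pigment epithelium and choroid markers and 10 lens, iris and ciliary body markers that were tested, edgeR, DESeq2 and limma-voom called 0. In either list 0 genes had an unadjusted p under 0.05, where 13.8% of all tested genes had one. The part of these cells in the levels above was not tested.

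**Figure D4:**
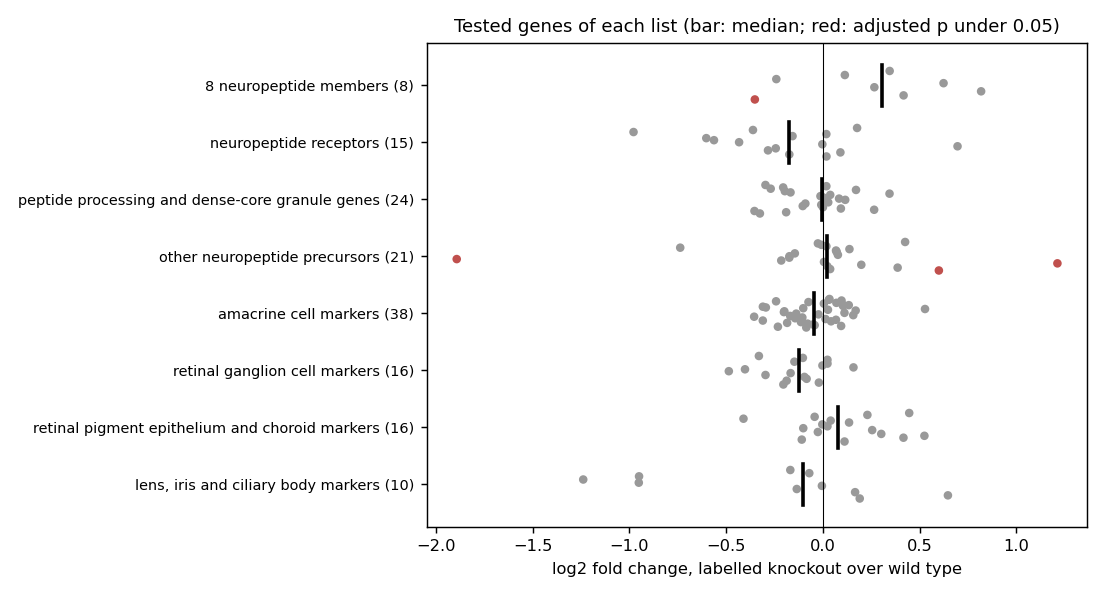
edgeR log2 fold changes, libraries labelled knockout over wild type (horizontal axis), of the tested genes in each list, with 1 point per gene, a bar at the median and genes past an adjusted p of 0.05 in red. The median of the 8 neuropeptide genes is 0.31, that of their receptors -0.17 and that of amacrine markers -0.05.

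For each neuropeptide gene, the pair of tested genes most like it was taken by the Pearson correlation of log2 CPM deviations from the group means over the 10 libraries. Vip was most like Cxadr (0.94) and Mras (0.91), Npy like Palmd (0.92) and 5330406M23Rik (0.91), Sst like Gm10037 (0.93) and 2310040G24Rik (0.92), and Tac1 like Ptgir (0.92) and Ifit3b (0.92). Penk was most like Zfp947 (0.96) and Shpk (0.95), Cck like Lap3 (0.96) and Cox15 (0.95), Adcyap1 like Pms1 (0.97) and Drc3 (0.93), and Pnoc like Fads2 (0.95) and Gm19243 (0.95). No neuropeptide gene was in the nearest pair of another, and among the 28 pairs of neuropeptide genes themselves the value ran from -0.64 for Vip with Sst to 0.81 for Tac1 with Adcyap1. These are the highest of all tested genes in libraries that share depth and scaling, and are given as a description.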

How the data were processed

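The deposited table holds counts, whole reads per gene without normalization, and the authors' DESeq2 log2 fold change and adjusted p-value of knockout over control, per the file headers. The genome was GRCm38.p5, and STAR 2.5.3a, DESeq2 1.14 and featureCounts 1.15.2 are named, besides bcl2fastq and FastQC, per the submitters' processing notes. The strand setting and the handling of reads with several matches are not given in the sources used here, so antisense and overlapping genes are uncertain. Coordinates are those of the table, and 2 of the 8 genes (Sst and Adcyap1) differ in extent in GENCODE M21.

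Genes were filtered with filterByExpr (minimum count 10, minimum total 15) and fitted in edgeR 4.0.16 (TMM, glmQLFit, glmQLFTest, genotype as the only term, R 4.3.3). SE is the absolute log2 fold change over the square root of F. Alternatives used DESeq2 1.42.0, limma-voom (limma 3.58.1), sva 3.50.0 with 1 surrogate variable, other scalings, no filter and libraries left out. The tools were run on counts simulated from this fit, with changes set only in genes above 1 CPM. That does not cover genes as low as Pnoc and Cort, and no outcome is given here. Library pairs differed by more than counting noise (10.9 chi-square per gene or more). The 8 genes and the lists were chosen with earlier results of these data known. Genes named are the 8, called list members, their receptors, Il6 and the likest pairs. Other genes were chosen as examples after their values were seen.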

Additional observations from a re-analysis of the deposited data

Results flagged for a closer look

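Npy stood at 14.9 CPM in K4, against 10.7 to 11.8 CPM in the other libraries labelled knockout, a library set apart from its group. Without K4 the log2 fold change of Npy was 0.33, and its edgeR adjusted p was 0.220. Crh stood at 2.51 CPM in K1, against 1.56 to 1.80 CPM in the other libraries labelled knockout, and kept its call without K1 (log2 fold change 1.08, edgeR adjusted p 0.0289). Of 46 groups of 5 libraries read this way, 2 were set apart, where chance gives about 1 in 20.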

How the results depend on the processing

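Direction was kept under all alternatives by every neuropeptide gene except Adcyap1, which read -0.0138 without W4 and -0.0131 without K1. The Vip log2 fold change was -0.35 with limma-voom, -0.34 with upper-quartile factors and -0.32 without W5 and K5 together (chosen after seeing the data), each without a call, and -0.38 to -0.30 with 1 library left out. Npy was called by DESeq2 (0.42) and ran from 0.33 to 0.47 with 1 library left out. Penk was called by DESeq2 (0.62) and without a low-count filter (0.62), and ran from 0.50 to 0.76. With 1 library left out, Sst ran from 0.61 to 1.08, Tac1 from 0.19 to 0.36, Cck from -0.35 to -0.10, Adcyap1 from -0.01 to 0.27, Pnoc from 0.07 to 0.77, and Il6 from 0.12 to 0.16 in log2(CPM + 1), beside 0.15 with all libraries and 0.94 with a pseudocount of 0.1 CPM. Genes called higher numbered 163, and 319 with DESeq2, 298 without a filter, 330 with 1 surrogate variable, 107 without W5 and K5 together, and 71 to 253 with 1 library left out (71 without K4, 84 without K5, 93 without K3, 253 without W2). Genes called lower numbered 222, and 444, 406 and 362 under the first 3 of these, and 140 (without K4) to 289 with 1 library left out. Receptors called lower numbered 3 with DESeq2 and 1 without a filter. Other precursors called higher numbered 1 without W5 and K5 together and 1 to 2 with 1 library left out. Lens, iris and ciliary body markers called lower numbered 2 without W5 and K5 together and 0 to 1 with 1 library left out (1 without K5). The cause was not tested. No paired analysis was possible because the labels carry no replicate numbers shared by the groups. Pnoc and Cort had the fewest reads of the precursors described, 2 to 20 and 1 to 23 per library.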
